A study of Mus musculus with 9 samples.

Results

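The genes described here are the noncoding genes and pseudogenes of the segment of mouse chromosome 16 (Mmu16) that carries an extra copy in the Dp1Tyb strain, a model of Down syndrome. A gene was taken as a member if the GENCODE M21 annotation of GRCm38 places it entirely within chr16:75540514-97962622, gives it a type other than protein-coding, and if its counts summed to 5 or more over all 9 cultures. The rule gave 26 members of the 43629 genes in the count table. RNA sequencing (RNAseq) was carried out on mouse embryonic fibroblasts (MEFs), the adherent connective tissue cells that grow out of dissociated embryos. The 4 WT cultures were Wild-type and the 5 Dp1Tyb cultures carried Dp(16Lipi-Zbtb21)1TybEmcf, a germline duplication present in every cell, and each culture came from its own littermate embryo at E14.5. The labels give the strain as C57BL/6J.129P2 for all embryos, from mice backcrossed to C57BL/6JNimr, and all cells were grown in DMEM with serum, antibiotics and 2-mercaptoethanol and passaged with trypsin, with no agent added for the comparison. The labels name WT replicate 1 and Dp1Tyb replicate 1 with the prefix MEF1 and the other 7 cultures with the prefix MEF2. These are called culture sets 1 and 2 here, although the labels do not say what the number marks.

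Long noncoding RNAs are transcripts without a recognised protein product, and some of them act as precursors from which microRNAs (miRNAs) are cut. Others start at the promoter of a coding gene and run in the opposite direction, which places the starts of both head to head. Processed pseudogenes are copies of spliced messenger RNAs that were written back into the genome, so they resemble the exons of a parent gene elsewhere and usually lack a promoter of their own. The type TEC in GENCODE marks unspliced stretches that are supported by cDNA evidence but await an experimental check. A cell with the duplication carries 3 copies of these genes against 2 in WT, so transcription in proportion to copy number would give a fold change of 1.5, or 0.58 on the log2 scale.

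A pair of miRNA host genes lies in the region and was read in the cultures. *Mir99ahg* holds *Mir99a*, *Mirlet7c-1* and *Mir125b-2* in its introns, and *Mir155hg* holds *Mir155* in an exon. The RefSeq sequences of the dominant arms are shown because they are the products the hosts are known for, with the seed (bases 2 to 8), the part that pairs with target RNAs, in capitals. All 4 lie on the plus strand of GRCm38.p6.
mmu-miR-99a-5p: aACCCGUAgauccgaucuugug
mmu-let-7c-5p: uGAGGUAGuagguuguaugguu
mmu-miR-125b-5p: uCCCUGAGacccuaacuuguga
mmu-miR-155-5p: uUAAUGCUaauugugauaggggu
They map to chr16:77598940-77598961, chr16:77599672-77599693, chr16:77646279-77646300 and chr16:84714143-84714165 in that order. The 4 seeds differ from each other. The seed of miR-155-5p occurred in no other entry among the 1738 mature mouse miRNAs listed in RefSeq, whereas that of let-7c-5p is the seed of the let-7 family and that of miR-99a-5p is shared with miR-99b-5p and miR-100-5p.

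The members were few and low compared with the coding genes around them. GENCODE lists 386 genes in the region, of which 238 are not protein-coding, and 107 of these were in the count table. Of the 107 genes, 65 had no count in any culture and 16 had between 1 and 4. The members just inside the limit, with 5 counts each, were *Gm7860*, *1810053B23Rik* and *Gm36963*, and the gene just outside it, with 4 counts, was *Gm21816*. By type, the members were 5 processed pseudogenes, 5 processed transcripts, 5 TEC genes, 4 antisense genes, 4 lincRNAs (intergenic long noncoding RNAs), 1 polymorphic pseudogene, 1 sense intronic gene and 1 miRNA gene. edgeR's filter on low counts kept 8 of them for the test, namely *Gm9843*, *Mx2*, *Mir155hg*, *Gm9242*, *Gm17518*, *Gm37694*, *B130034C11Rik* and *Mir99ahg*. Thus 7.48% of the noncoding genes of the region that were in the table entered the test, compared with 5.43% of 20988 such genes in the whole table and 56.6% of 143 coding genes in the region.

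Counts were concentrated in a pair of members typed as pseudogenes. *Gm9843* and *Mx2* together took 3742 of the 5350 counts of all members, or 69.9%. Every 100-base stretch of *Gm9843* also occurs in transcripts of other genes. Whether its counts came from the pseudogene itself was not tested, so its share and its level are uncertain. Per exon length, *Gm9843* had the highest level at 23.5 RPKM (counts scaled to the exon length of the gene and to the total counts of the culture) and *Mx2* followed at 1.75 RPKM, as the mean of 9 cultures. The 6 other members kept by the filter lay between 0.154 RPKM for *Mir99ahg* and 0.584 RPKM for *Mir155hg*. The 18 members not kept by the filter ranged from 0.00398 to 0.830 RPKM with a median of 0.0523 RPKM. For comparison, the 81 coding genes of the region that were tested had a median of 6.36 RPKM. In 7 of the 26 members no culture had more than 3 counts, and 11 members had no count in at least 1 culture.

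Total counts ranged from 25571442 to 30009361 over the WT cultures and from 24804539 to 26782380 over the Dp1Tyb cultures, so depth differed little between the genotypes. The duplication was visible in the coding genes, since 76 of 81 had a fold change above 1 and their median log2 fold change was 0.58. All 8 fibroblast markers examined were expressed, with a sum of at least 1085620 normalised counts in each culture. Sets of markers for 6 other cell types were much lower, and none of their genes passed the adjusted test. Summed glial markers ranged from 465 to 915 normalised counts over WT cultures and from 147 to 486 over Dp1Tyb cultures, and the skeletal muscle sum, nearly all *Des*, from 178 to 425 and from 343 to 1010. Any part of these differences in the results for the members was not tested, and in bulk RNA fewer cells of a type cannot be told apart from less RNA per cell.

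No member passed the adjusted test. With edgeR's quasi-likelihood test, two-sided, and Benjamini-Hochberg adjustment, 0 of 8 members had an adjusted p below 0.05, and each of the 8 had an adjusted p of 1.00. Of all 14567 genes tested, 0.165% were called, all of them higher in Dp1Tyb, and 22 of these 24 genes were coding genes of the region. At an unadjusted p below 0.05 the count was 1 of 8, *Mir155hg*, beside a background of 3.13% of all genes in either direction and 1.36% higher in Dp1Tyb. With the culture set as a covariate it was 3 of 8, *B130034C11Rik* (0.018), *Mir155hg* (0.038) and *Gm9242* (0.040), all with an edgeR adjusted p of 1.00. In that fit 588 of all 14567 genes had an unadjusted p below 0.05. DESeq2 also called 0 of 8, with *Mir155hg* and *Mx2* at an unadjusted p below 0.05 without its beta prior and *Mx2* alone with it. Of all 14567 genes, 525 lay below that limit without the prior and 518 with it. No member separated the genotypes, since the normalised counts of WT and Dp1Tyb cultures overlapped for all 26. Of the 14567 genes tested, 0.686% lay higher without overlap in Dp1Tyb and 0.673% lower, and of the 19861 genes with summed counts of 5 or more, 0.634% and 0.715%. Among the coding genes of the region, 46 of 81 (56.8%) lay higher without overlap.

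The fold changes of the members nevertheless lay mostly above 0 and spread widely. Of the 8 members tested, 7 had a positive log2 fold change, and the median was 0.45, beside 0.58 for the 81 coding genes of the region, 0.0069 for 1132 tested noncoding genes elsewhere and 0.0027 for all tested genes. The values ran from -0.28 to 1.15. The 95% interval held log2 of 1.5 for 6 of the 8 members and held 0 for 7. Among the 1132 noncoding genes elsewhere, it held log2 of 1.5 for 571 and 0 for 1105. The interval of *Gm17518*, which missed log2 of 1.5, is narrower than counting noise on its 40 WT and 48 Dp1Tyb counts would give. Its miss is therefore not relied on. The standard errors of the members tested were between 0.16 and 0.59 with a median of 0.33, compared with a median of 0.13 for the coding genes. The median summed count was 157 for the members tested and 7106 for those coding genes. Most of these members could thus not be told from either no change or a change in proportion to copy number. A high count did not ensure a narrow interval, since *Mx2* had 1506 counts and the highest standard error, 0.59. *Gm17518*, with 88 counts, had a standard error of 0.25, to which the limit given above applies.

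Taking the median over the 8 members in each culture, relative to the WT mean on the log2(normalised count + 1) scale, WT cultures lay at 0.40, -0.20, -0.05 and -0.07 and Dp1Tyb cultures at 0.34, 0.17, 0.63, 0.51 and 0.35. WT replicate 1 thus overlapped the Dp1Tyb cultures. The same median over the 81 coding genes ranged from -0.03 to 0.05 over WT cultures and from 0.54 to 0.60 over Dp1Tyb cultures, with a clear gap.

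To include the members that the filter removed, the fit was repeated on all 19861 genes with summed counts of 5 or more, the limit that also defined the members. In this fit 19 of 26 members (73.1%) had a log2 fold change above 0, compared with 51.3% of all genes and 91.1% of 90 coding genes of the region. The median was 0.34 for the members and 0.59 for the coding genes. None of the 26 was called, beside 0.0957% of all genes, and 1 had an unadjusted p below 0.05, beside 3.3%. The 95% interval held log2 of 1.5 for 24 of 26 members, beside 2914 of 3727 noncoding genes outside the region. The exceptions among the members were *Gm9843* and *H3f3a-ps2*, both processed pseudogenes, whose upper limits lay at 0.48 and 0.07. For *H3f3a-ps2* the interval is narrower than counting noise on its 44 WT and 35 Dp1Tyb counts would give. Fitted values of members with so few counts depend on the prior count that edgeR adds.

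**Figure D1:**
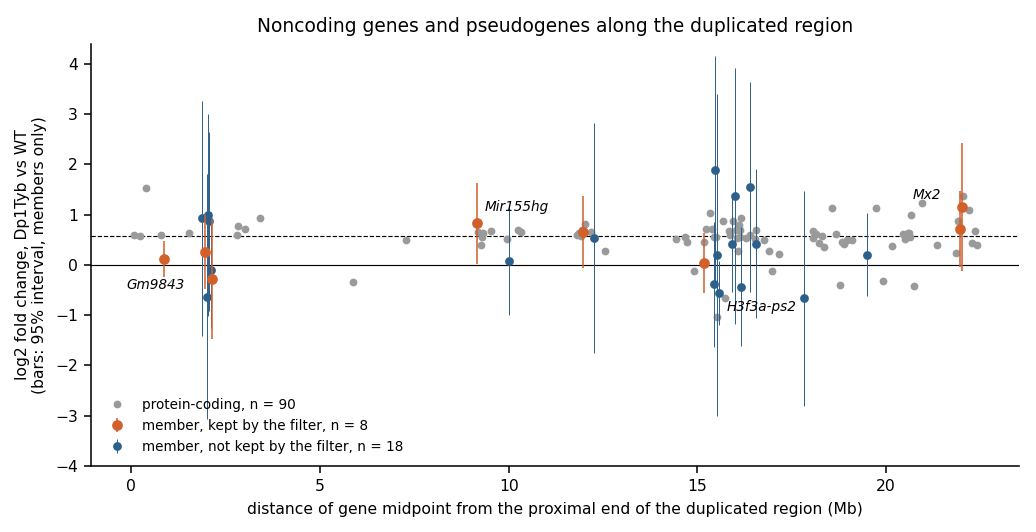
Log2 fold change (Dp1Tyb vs WT) of each member against its distance in Mb from the proximal end of the duplicated region, from the fit on all genes with summed counts of 5 or more; orange points are the 8 members kept by edgeR's filter, blue points the 18 others, grey points 90 coding genes, bars the 95% intervals of the members, and the dashed line log2 of 1.5. The coding genes gather near the dashed line, whereas the members scatter from -0.66 to 1.89 with intervals that mostly cover both lines.

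*Mir155hg* (ENSMUSG00000097418, chr16:84703167-84715245, plus strand, 3 exon blocks after merging overlapping exons), a lincRNA known as the precursor of miR-155 in activated immune cells, had 12.5, 18.7, 12.2 and 19.0 normalised counts in the WT cultures and 12.5, 45.4, 24.0, 25.3 and 31.6 in the Dp1Tyb cultures. The 4 Dp1Tyb cultures of set 2 were all above every WT culture, and Dp1Tyb replicate 1 lay among the WT values. The means were 15.6 ± 3.76 (SD, n = 4) and 27.8 ± 12 (SD, n = 5). The log2 fold change was 0.83 (95% interval 0.03 to 1.63), with an unadjusted p of 0.044 in edgeR's fit across all genes and an adjusted p of 1.00. Within set 2 it was 0.92 with an unadjusted p of 0.022 in edgeR, and without Dp1Tyb replicate 2, the highest culture, it was 0.58 with an unadjusted p of 0.105. The unadjusted p was also above 0.05 in 6 further fits with 1 culture left out, up to 0.108 without WT replicate 3. Without WT replicate 4 it was 0.049 in edgeR. Without Dp1Tyb replicate 1 the log2 fold change was 1.02, with an unadjusted p of 0.0076 and an adjusted p of 0.887 in edgeR. In set 1 the pair of cultures differed by 0.01 on the log2(normalised count + 1) scale. *Mir155* itself, 65 bases that lie wholly inside an exon of the host, had 0 counts in all cultures. A read here overlaps 2 annotated genes, and how the counting treated such reads was not given in the sources used here.

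*Mir99ahg* (ENSMUSG00000090386, chr16:77236317-77773427, plus strand) is a processed transcript of 18 exon blocks that spans 537 kb and carries the let-7c, miR-99a and miR-125b cluster. It had 90.5, 36.3, 46.8 and 35.1 normalised counts in WT and 61.8, 36.8, 80.0, 61.7 and 72.3 in Dp1Tyb. The highest value of all was that of WT replicate 1. For the host the log2 fold change was 0.25 (95% interval -0.49 to 1.00; edgeR adjusted p 1.00). Without WT replicate 1 it was 0.67, with an unadjusted p of 0.037 and an adjusted p of 1.00 in edgeR, whereas it was 0.12 without WT replicate 2 or WT replicate 4 and 0.15 without Dp1Tyb replicate 3. In set 1 the Dp1Tyb culture lay lower than the WT culture by 0.54 on the log2(normalised count + 1) scale, a difference of -0.54, whereas within set 2 the log2 fold change was 0.67 with an edgeR unadjusted p of 0.057.

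The introns of *Mir99ahg* held 6 further members, 5 TEC genes and *Mir99a*, none of which shared an exonic base with it. *Gm37694* (ENSMUSG00000102562, chr16:77685277-77687409, plus strand) had 31.6, 4.15, 7.13 and 12 normalised counts in WT and 13.5, 6.49, 17.0, 9.91 and 10.2 in Dp1Tyb. WT replicate 1 was again the highest of all cultures. Its log2 fold change was -0.28 (95% interval -1.49 to 0.92; edgeR adjusted p 1.00), and 0.55 without WT replicate 1. *C130023A14Rik*, a TEC gene that begins within the last 4 bases of *Mir125b-2*, had 64 counts in all, with 13.3 normalised counts in WT replicate 1, 15 in Dp1Tyb replicate 3 and between 3.05 and 6.01 in the other 7 cultures. *Mir99a*, the only miRNA gene among the members, had 13 counts in all and no more than 3 in any culture. *Mirlet7c-1* and *Mir125b-2* had 0 counts in all cultures. The libraries were made from polyadenylated RNA, so mature miRNAs were not measured, and a count on a miRNA gene is a read from longer RNA over the hairpin.

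*Gm37606*, *Gm36963* and *9430053O09Rik*, the other TEC genes, had 17, 5 and 7 counts. The last of these is the only one of the 5 TEC genes on the strand opposite to *Mir99ahg*. Summed over the 6 intronic members, normalised counts were 52.3, 9.33, 15.3 and 19.0 in WT and 26.1, 14.1, 39.0, 19.8 and 20.4 in Dp1Tyb, with a ratio of means of 0.995. The sum was thus highest in WT replicate 1 and next highest in Dp1Tyb replicate 3, the cultures with the highest values of the host. Across the 9 cultures, which share their libraries and depth, the sum and *Mir99ahg* correlated with a Pearson's r of 0.85.

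**Figure D2:**
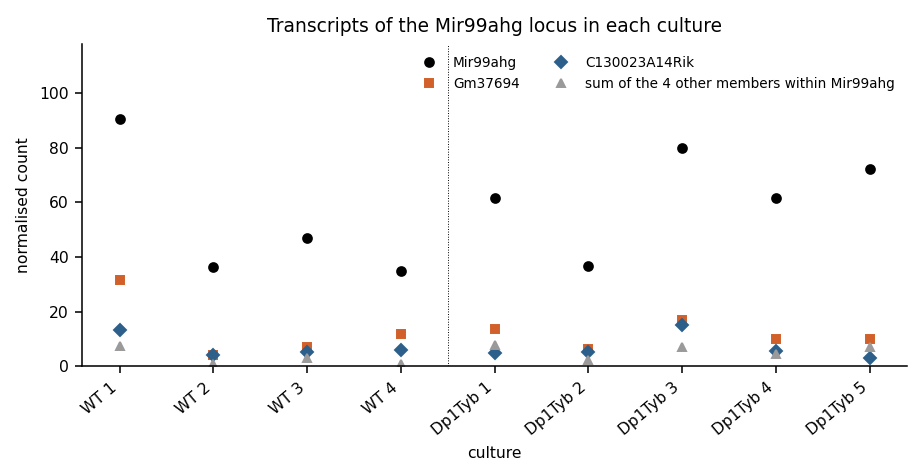
Normalised counts of *Mir99ahg* and of the members in its introns in each culture, WT to the left and Dp1Tyb to the right of the dotted line; triangles are the sum of *Gm37606*, *Gm36963*, *9430053O09Rik* and *Mir99a*. WT replicate 1 has the highest host value, 90.5, and the highest *Gm37694* value, 31.6.

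Of the 26 members, 6 (23.1%) started within 500 bases of the start of a coding gene on the other strand. Among all 3753 noncoding genes of the table with the same minimum of counts, this was so for 553 (14.7%). These members were *B130034C11Rik* beside *Cct8*, *Gm17518* beside *Mis18a*, *4930404I05Rik* beside *Synj1*, *4931406G06Rik* beside *Paxbp1*, *Gm10785* beside *Donson* and *D430001F17Rik* beside *Atp5o*, with 59 to 450 bases between the starts. The 4 pairs of *Cct8*, *Mis18a*, *Paxbp1* and *Donson* were divergent, and the heads of the other pairs overlapped. Only *B130034C11Rik* and *Gm17518* were kept by the filter. Their promoter windows are shown, on the plus strand of GRCm38.p6, because each holds the starts of both genes, with the bases from start to start in capitals. The coding gene runs to the left and the noncoding gene to the right. The windows are chr16:87495823-87496122 and chr16:90727253-90727552.
B130034C11Rik and Cct8: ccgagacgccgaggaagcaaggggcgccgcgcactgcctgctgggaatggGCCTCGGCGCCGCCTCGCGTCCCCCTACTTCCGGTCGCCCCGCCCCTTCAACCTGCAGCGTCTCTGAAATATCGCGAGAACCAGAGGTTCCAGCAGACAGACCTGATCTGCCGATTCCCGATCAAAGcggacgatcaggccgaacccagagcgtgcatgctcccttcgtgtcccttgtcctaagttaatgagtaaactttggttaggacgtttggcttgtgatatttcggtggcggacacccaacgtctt
Gm17518 and Mis18a: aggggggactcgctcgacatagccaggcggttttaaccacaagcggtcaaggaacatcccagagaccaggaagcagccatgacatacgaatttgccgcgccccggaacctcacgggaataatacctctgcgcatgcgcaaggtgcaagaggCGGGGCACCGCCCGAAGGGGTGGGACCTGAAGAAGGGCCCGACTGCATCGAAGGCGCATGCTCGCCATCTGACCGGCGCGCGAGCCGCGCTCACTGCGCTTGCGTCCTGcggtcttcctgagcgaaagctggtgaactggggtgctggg
Their GC contents were 60% and 63.3%, and each held 28 CpG dinucleotides. Over 32851 RefSeq promoter windows of the same length, the medians were 52.7% GC and 7 CpG. A GC box (GGGCGG on either strand) occurred in both windows and in 35.7% of all windows. Neither held CCAAT or TATAAA on either strand, which occurred in 37.4% and 13.6% of all windows.

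*B130034C11Rik* (ENSMUSG00000093606, chr16:87495999-87504033, plus strand, 2 exon blocks) is a processed transcript. It had 11.6, 9.33, 6.11 and 8.01 normalised counts in WT and 21.2, 9.74, 12, 14.3 and 12.2 in Dp1Tyb. Dp1Tyb replicate 2 lay among the WT values, and the other 4 Dp1Tyb cultures were above them. This gave a log2 fold change of 0.65 (95% interval -0.03 to 1.34; edgeR adjusted p 1.00). *Cct8*, which encodes a subunit of the chaperonin that folds actin and tubulin, had a log2 fold change of 0.70 ± 0.16 (SE, edgeR adjusted p 0.403), with every Dp1Tyb culture above every WT culture.

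*Gm17518* (ENSMUSG00000097757, chr16:90727512-90729120, plus strand, 2 exon blocks), a lincRNA, had 9.14, 11.4, 9.16 and 9.01 normalised counts in WT and 10.6, 13.0, 8, 7.71 and 10.2 in Dp1Tyb, so Dp1Tyb cultures held both the highest and the lowest values. The log2 fold change was 0.03 (edgeR adjusted p 1.00). Its 95% interval ran from -0.52 to 0.58 and ended just short of log2 of 1.5. In the fit on all genes with 5 or more counts it ended at 0.63. Counting noise on 40 WT and 48 Dp1Tyb counts would give a wider interval than the first, so log2 of 1.5 is not excluded. *Mis18a*, which is required to load the centromeric histone, had a log2 fold change of 0.46 ± 0.10 (SE, edgeR adjusted p 0.312), again with all Dp1Tyb cultures above all WT cultures.

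To see whether each transcript moved by the same factor as the gene it faces, log2 ratios of member to partner were compared between the genotypes with an exact permutation test, two-sided, over all ways to assign 4 of 9 cultures to WT, which can give no p below 0.0079. The ratio of *B130034C11Rik* to *Cct8* differed by -0.11 between Dp1Tyb and WT (exact p 0.857, adjusted 0.857 over 4 pairs), and by -0.06 within set 2. The ratio of *Gm17518* to *Mis18a* differed by -0.45 (exact p 0.063, adjusted 0.159) and by -0.45 within set 2 (exact p 0.143). Neither difference passed the adjusted test. The difference for *Gm17518* was -0.57 without Dp1Tyb replicate 2 (exact p 0.029, the smallest that 4 against 4 cultures can give).

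**Figure D3:**
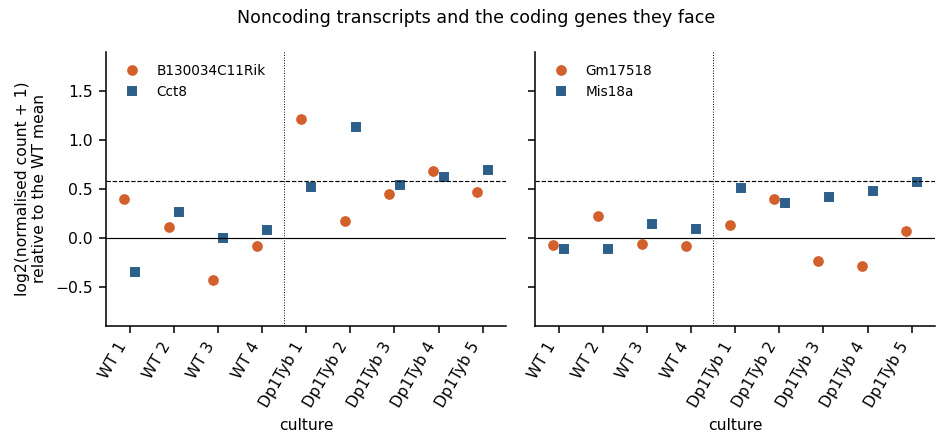
Log2(normalised count + 1) relative to the WT mean in each culture for *B130034C11Rik* with *Cct8* (left) and *Gm17518* with *Mis18a* (right); circles are the noncoding transcripts, squares the coding genes, and the dashed line is log2 of 1.5. The squares of all 5 Dp1Tyb cultures lie above those of WT in both panels, whereas the circles of the genotypes overlap.

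The 4 antisense members and the other head-to-head transcripts were too low for the filter. They are named here for their position and outside the naming rule. *4930404I05Rik*, *4931406G06Rik*, *Gm10785*, *D430001F17Rik* and *Gm15965*, an antisense transcript from an intron of *Synj1*, had 7, 7, 35, 10 and 28 counts over all cultures. *Gm10785* shares 24.6% of its exonic bases with exons of *Cryzl1* on the other strand, *D430001F17Rik* shares 18.5% with *Atp5o*, *4930404I05Rik* shares 41.6% with *Paxbp1*, and *4931406G06Rik* shares 58.2% with *4932438H23Rik*. *Cryzl1* was at 10.8 RPKM against 0.0802 RPKM for *Gm10785*, and *Atp5o* at 81.6 RPKM against 0.0222 RPKM for *D430001F17Rik*. The library kit preserved strand, but the strand option of the counting was not given in the sources used here. Of 177 genes in the table with at least 200 exonic bases, all under exons of the other strand, 104 had at least 1 count and 12 had at least 100, with a median of 1 and a highest value of 3614 over the 177. With strand ignored, no read on such a gene would be unambiguous. As the annotation release of the counting was not given either, these counts do not settle the option. Summed over all 6 head-to-head members, the WT cultures ranged from 19.0 to 31.6 normalised counts and the Dp1Tyb cultures from 24.0 to 40.5. The ratio of means was 1.27. This sum includes *B130034C11Rik* and *Gm17518*, which the filter kept and which held 105 and 88 of its 252 counts. It therefore says little about the low members.

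*Mx2* (ENSMUSG00000023341, chr16:97535308-97560900, plus strand, 16 exon blocks) belongs to the interferon-induced dynamin-like GTPases that restrict viruses, and GENCODE types it as a polymorphic pseudogene because its reading frame is broken in the reference strain. It had 123, 50.8, 134 and 89.1 normalised counts in WT and 198, 27.1, 348, 193 and 341 in Dp1Tyb. Dp1Tyb replicate 2 was the lowest of all cultures, and the other 4 Dp1Tyb cultures were above every WT culture. The means were 99.3 ± 37.6 (SD, n = 4) and 221 ± 132 (SD, n = 5). The log2 fold change, 1.15, was the highest of the 8 members and had the widest interval (-0.16 to 2.47; edgeR adjusted p 1.00). Without Dp1Tyb replicate 2 it was 1.44, with an unadjusted p of 0.0016 and an adjusted p of 0.378 in edgeR. With any other culture left out it was between 0.93 (without Dp1Tyb replicate 3) and 1.33 (without WT replicate 3), with unadjusted p between 0.085 and 0.174. Within set 2 it was 1.31, and the pair of set 1 differed by 0.68 on the log2(normalised count + 1) scale.

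*Mx1* is a nearby coding gene of the same family. Its normalised counts were 37.4, 7.25, 24.4 and 14 in WT and 18.3, 1.08, 57.0, 27.5 and 87.6 in Dp1Tyb, and across the 9 cultures, which share libraries and depth, *Mx1* and *Mx2* correlated with a Pearson's r of 0.94. Of the 100-base stretches of *Mx2* transcripts, 1.13% occur in transcripts of other genes. The 4 macrophage markers (*Adgre1*, *Csf1r*, *Cd68* and *Ptprc*) also varied between cultures, with sums of 974, 423, 674 and 1372 normalised counts in WT and 176, 197, 2108, 850 and 1470 in Dp1Tyb. None of the 4 was called and none was at 0 in every culture. *Mx2* and the macrophage sum were both high in Dp1Tyb replicates 3 and 5 and both low in Dp1Tyb replicate 2, while in Dp1Tyb replicate 1 the sum was lowest and *Mx2* was above all WT cultures. *Mir155hg* was highest in Dp1Tyb replicate 2, where the macrophage sum was among the lowest. The part of these markers in the levels of either gene was not tested.

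**Figure D4:**
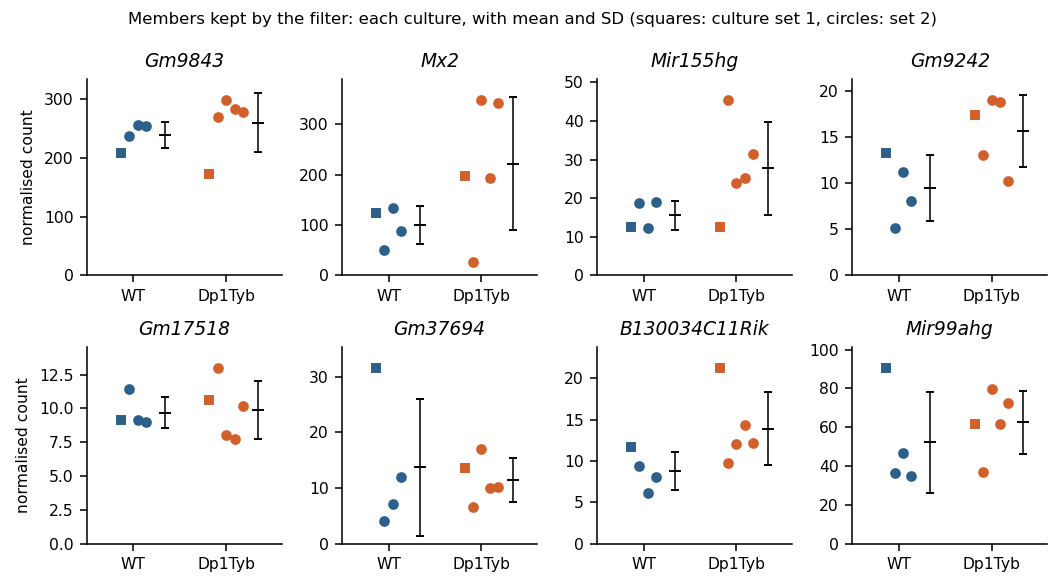
Normalised counts of the 8 members kept by the filter in each culture, in order of RPKM, on axes that start at 0 and differ between panels; blue symbols are WT, orange symbols Dp1Tyb, squares the cultures of set 1, circles those of set 2, and bars the mean ± SD. In every panel the genotypes overlap. The highest value is 45.4 in Dp1Tyb replicate 2 for *Mir155hg*, and in WT replicate 1 it is 31.6 for *Gm37694* and 90.5 for *Mir99ahg*.

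The 5 processed pseudogenes were matched to their parents by aligning their transcripts to all GENCODE M21 transcripts. *Gm9843* matched *Fau*, which encodes a ubiquitin-like protein fused to a ribosomal protein, *Gm9242* matched *Hnrnpa3*, an RNA-binding protein gene, *H3f3a-ps2* matched *H3f3a*, a gene for the replication-independent histone, *Gm2541* matched *Dnajb6*, a co-chaperone gene, and *Gm7860* matched the ribosomal protein gene *Rps2*. All parents lie outside Mmu16, on chromosomes 19, 2, 1, 5 and 17 in that order, and so are present in 2 copies in both genotypes. *Gm9843* was identical to *Fau* over all of its 402 bases, *Gm9242* differed from *Hnrnpa3* at 3 of 1074 bases, and *H3f3a-ps2* differed from *H3f3a* at 5 of 411 bases. A stretch of 100 bases is shown for these 3 members, taken from the GENCODE transcripts, since it shows how few bases tell a read of the pseudogene from a read of the parent. It is the stretch with the most differing bases, 4 for *H3f3a-ps2* and 1 for *Gm9242*, so other stretches hold as many or fewer. Differing bases are in capitals. The stretch of *Gm9843* has none and stands for *Fau* as well.
Gm9843: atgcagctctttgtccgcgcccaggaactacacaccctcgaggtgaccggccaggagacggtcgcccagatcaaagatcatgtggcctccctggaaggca
H3f3a-ps2: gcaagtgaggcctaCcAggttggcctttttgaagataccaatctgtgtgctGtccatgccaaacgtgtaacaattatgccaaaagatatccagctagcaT
H3f3a: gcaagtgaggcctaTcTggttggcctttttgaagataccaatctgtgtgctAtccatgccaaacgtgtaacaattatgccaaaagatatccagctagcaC
Gm9242: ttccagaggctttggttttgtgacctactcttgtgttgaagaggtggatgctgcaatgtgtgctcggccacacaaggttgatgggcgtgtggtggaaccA
Hnrnpa3: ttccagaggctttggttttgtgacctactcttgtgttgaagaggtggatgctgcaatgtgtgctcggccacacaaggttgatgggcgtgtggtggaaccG
Reads were 100 bases long, and the authors removed reads with more than 1 place of alignment. Of all stretches of this length in the pseudogene, 100% were also found in transcripts of other genes for *Gm9843*, 88.6% for *Gm2541*, 83.3% for *Gm9242*, 68.9% for *H3f3a-ps2* and 4.87% for *Gm7860*. Over at least 90% of their length, *H3f3a-ps2*, *Gm7860* and *Gm9242* aligned to 70, 60 and 45 other genes, the parent included, at any identity. *Gm9843* and *Gm2541* did so to 2 each. Whether reads from the parents or from these other genes entered the counts of the processed pseudogenes was not tested, and their values are uncertain for that reason.

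*Gm9843* (ENSMUSG00000050299, chr16:76403251-76403652, minus strand, 1 exon block) had 208, 237, 255 and 254 normalised counts in WT and 172, 268, 298, 282 and 278 in Dp1Tyb. The lowest value was that of Dp1Tyb replicate 1, and the other 4 Dp1Tyb cultures were above all WT cultures. Between the genotypes, *Gm9843* had a log2 fold change of 0.12, with the narrowest interval of the 8 members (-0.24 to 0.48; edgeR adjusted p 1.00), and this interval did not hold log2 of 1.5. The log2 fold change was 0.24 without Dp1Tyb replicate 1 (edgeR unadjusted p 0.052), and without WT replicate 1 and without Dp1Tyb replicate 3 it was 0.06 and 0.07. *Fau* was at 269 RPKM with a log2 fold change of -0.00 ± 0.12 (SE, edgeR adjusted p 1.00). The log2 ratio of *Gm9843* to *Fau* differed by 0.10 between the genotypes (exact p 0.413, adjusted 0.550 over 4 pairs) and by 0.22 within set 2 (exact p 0.086, over 35 relabelings).

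*Gm9242* (ENSMUSG00000096156, chr16:97490047-97491120, plus strand, 1 exon block) lies in an intron of *Fam3b* on the other strand. It had 13.3, 5.18, 11.2 and 8.01 normalised counts in WT and 17.4, 13.0, 19.0, 18.7 and 10.2 in Dp1Tyb. The groups overlapped, since the highest WT value, 13.3, lay above Dp1Tyb replicates 2 and 5 and below the others. Its log2 fold change was 0.71 (95% interval -0.01 to 1.44; edgeR unadjusted p 0.053, adjusted p 1.00). *Hnrnpa3* had a log2 fold change of -0.00 ± 0.09 (SE, edgeR adjusted p 1.00), and the log2 ratio of pseudogene to parent differed by 0.72 (exact p 0.079, adjusted 0.159) and by 0.84 within set 2 (exact p 0.086). The comparisons with parents were added after the data had been seen.

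*H3f3a-ps2*, on the minus strand at chr16:91114189-91114599, was not kept by the filter although it had 79 counts, the most of the 18 members so removed. Its normalised counts were 7.48, 10.4, 13.2 and 12 in WT and 6.76, 7.57, 9, 6.61 and 6.11 in Dp1Tyb, and only WT replicate 1 lay within the range of Dp1Tyb. In the fit on genes with 5 or more counts its log2 fold change was -0.56 (95% interval -1.19 to 0.07, edgeR unadjusted p 0.089, adjusted p 1.00). The interval lay below log2 of 1.5, but it is narrower than counting noise on 44 WT and 35 Dp1Tyb counts would give. *H3f3a* had a log2 fold change of -0.08 ± 0.10 (SE, edgeR adjusted p 1.00). *Gm2541*, which overlaps the start of *Cyyr1* on the same strand by 165 bases, had 47 counts and a log2 fold change of 0.08 in that fit (95% interval -1.01 to 1.17). *Gm7860* had 5 counts, too few for a statement.

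**Figure D5:**
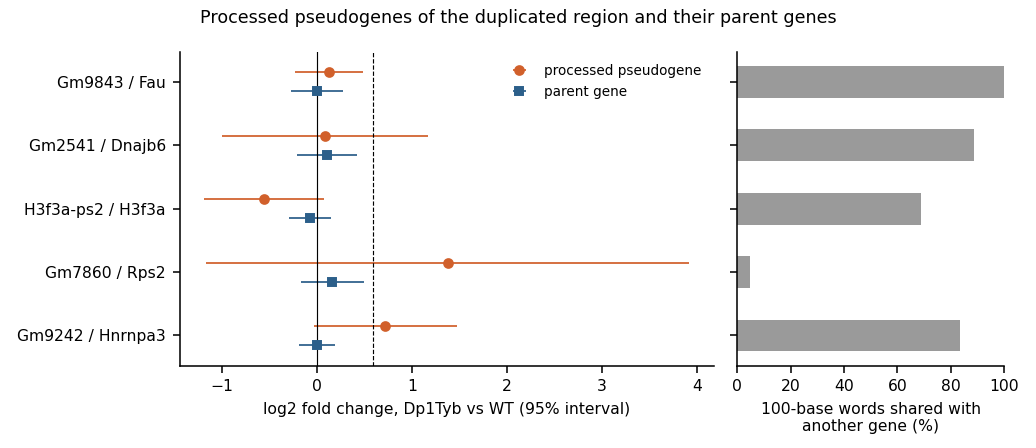
Left, log2 fold change (Dp1Tyb vs WT) with its 95% interval for the 5 processed pseudogenes (circles, fit on genes with 5 or more counts) and their parent genes (squares, fit on filtered genes), with lines at 0 and at log2 of 1.5 (dashed); right, the share of 100-base words of each pseudogene that also occur in transcripts of other genes. The parents lie near 0, between -0.08 and 0.16, and the pseudogene with all words shared, *Gm9843*, lies at 0.12.

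The other low members completed the set, and those with fewer than 39 counts are named only to account for all 26. *A930006K02Rik*, a processed transcript, had 41 counts, with WT cultures from 1.04 to 5.09 normalised counts and Dp1Tyb cultures from 4 to 6.76. *Gm16310*, the sense intronic member within *Mrps6*, a gene of the mitochondrial ribosome, had 39 counts, with WT cultures from 2.49 to 6.11 normalised counts and Dp1Tyb cultures from 0 to 8.66. The lincRNAs *Gm7976* and *2810407A14Rik* had 35 and 11 counts, and the processed transcript *1810053B23Rik* had 5. Summed over the 18 members that the filter removed, the WT mean was 48.3 ± 11.5 normalised counts (SD, n = 4) and the Dp1Tyb mean 51.5 ± 9.96 (SD, n = 5), a ratio of 1.07. The sum overlapped between the genotypes, from 39.4 to 64.0 in WT and from 37.4 to 63.0 in Dp1Tyb. In the fit on genes with 5 or more counts, 12 of the 18 had a log2 fold change above 0, all 18 intervals held 0 and 17 held log2 of 1.5.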

How the data were processed

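Per the labels and the paper's methods, the authors made strand-preserving libraries of polyadenylated RNA with the TruSeq Stranded mRNA kit, trimmed the paired reads with Trim Galore, mapped them to GRCm38 with TopHat2 2.0.12, removed reads with several alignments and counted the rest per Ensembl gene with HTSeq. The strand option and the annotation release of the counting were not given in the sources used here. The deposited counts are not normalised, and only they were used. The deposited counts divided by size factors and the table of the authors' own comparison, with fold changes and p-values made with DESeq2 1.6.3, were not used. Cultures were grouped by the genotype in the labels.

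Of the 43629 genes, 1167 had no match in GENCODE M21 and no position here. The members and lists were chosen with earlier results of these data known. All 9 cultures were fitted with edgeR 4.0.16 in R 4.3.3 (TMM factors, filterByExpr, quasi-likelihood test, two-sided, no covariate, Benjamini-Hochberg adjustment over 14567 genes, called at an adjusted p below 0.05), and an adjusted p of 1.00 is rounded. DESeq2 1.42.0 was an alternative. Normalised counts are counts scaled by TMM library size. RPKM used the summed exon length of GENCODE M21. Log2 ratios of pairs used a pseudocount of 1 and exact permutation over all relabelings, 35 of them within set 2. Total counts of 24804539 to 30009361 set the precision, and without molecular identifiers 2 reads may be copies of 1 molecule. The labels and the paper tie each culture to an embryo, so p-values measure the spread between cultures. Scripts were tested on simulated counts. Sequences were aligned with blastn 2.17.0, and tables were handled with Python 3.11.15, numpy 2.4.6, pandas 2.3.3, scipy 1.17.1 and matplotlib 3.10.9. miRNA and promoter sequences are from RefSeq.

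Every member kept by the filter was named, with values per culture for miRNA hosts, for members with an unadjusted p below 0.05 and for the 3 with the highest RPKM. Values per culture for other members were chosen after they had been seen. Members not kept were named if they are miRNA genes or among the 5 with the highest summed count, and the others were named outside this rule to account for all members. Alternatives covered other normalisations, filters, tools and thresholds, the culture set, set 2 alone, the replicate block, pseudocounts, overlapping genes and each culture left out in turn.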

Additional observations from a re-analysis of the deposited data

Results flagged for a closer look

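Among 24 groups of cultures examined for a value far from the others (the 8 members tested and the 4 log2 ratios of pairs, by genotype), 2 had one, and chance gives about 1 in 20 groups, or 1.2. *Gm9843* had 172 normalised counts in Dp1Tyb replicate 1, far below the 268 to 298 of the other Dp1Tyb cultures. That culture is the only Dp1Tyb culture of set 1. Its parent gene *Fau* was also lowest there among Dp1Tyb cultures, at 5701 normalised counts against 6501 to 7586. A link between these values was not tested. *Gm17518* had 11.4 normalised counts in WT replicate 2, above the 9.01 to 9.16 of the other WT cultures. Before scaling, WT replicates 1 to 4 had 11, 11, 9 and 9 counts, so this flag rests on the library scaling of small counts.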

How the results depend on the processing

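The count of members called was 0 under all alternatives, including an adjusted p below 0.10 and DESeq2, which called 67 genes in all without its beta prior and 66 with it. The fit with the replicate block, which also leaves out the unpaired Dp1Tyb replicate 5, called 0 of 14480 genes (800 at an unadjusted p below 0.05) and 0 members, and set 2 alone called 1 gene. With the replicate block the median log2 fold change was 0.68 over the 7 members it tested, beside 0.70 without Dp1Tyb replicate 5 and no block, and the log2 fold change of *Mx2* was 0.68. Correlations of deviations between same-numbered cultures were 0.247, 0.732, 0.030 and 0.382, so the numbers were not taken to pair cultures. The block changed no call among members or pairs. With DESeq2's beta prior, which shrinks fold changes, the median of members moved to 0.13 and that of coding genes of the region to 0.43. With 1 culture left out, the median of members was between 0.32 (without WT replicate 2) and 0.70 (without Dp1Tyb replicate 5) and that of coding genes between 0.57 and 0.62. The filter kept between 6 and 9 members in these fits, so the range of their median also reflects which members were counted. Without Dp1Tyb replicate 5, *Gm17518*, at 0.03 in the main fit, was not kept. The log2 fold change of *Gm37694* turned to 0.012 with the culture set as a covariate and was between -0.58 and 0.55 with 1 culture left out, positive without WT replicate 1. The difference in the ratio of *B130034C11Rik* to *Cct8* was between -0.31 and 0.14 with 1 culture left out, with a turn to 0.14 without WT replicate 1 and to 0.11 without Dp1Tyb replicate 2. That of *Gm17518* to *Mis18a* was between -0.57 and -0.34, and it had an exact p of 0.029 without Dp1Tyb replicate 2, and a value of -0.44 with an exact p of 0.032 at a pseudocount of 5, neither adjusted over pairs. The cause was not tested. The other 244 values kept their direction and their side of the threshold. Depth limits 18 of the 26 members, whose counts were too low for edgeR's filter.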
